A study of Mus musculus with 2 samples.

Results

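The genes described here encode the nuclear subunits of respiratory complexes III, IV and V, the mobile electron carrier cytochrome c and a factor that joins complexes together. They were taken by symbol: every probe set whose single annotated gene was Cyc1 or Cycs, or had a symbol starting with Uqcr, with Atp5 or with Cox and a digit from 4 to 8. The rule gave 87 of the 45101 probe sets on the array, and 44 of its 18193 singly named genes. Of these, 9 genes belong to complex III, 16 to complex IV and 17 to complex V, and the others are Cycs and Cox7a2l. Cox7b, a further subunit of complex IV, had no probe set of its own name and was not analysed here.

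Expression was measured in whole hearts of male C57BL/6J mice aged 10 weeks, 3 days after surgery that either tied off the left anterior descending coronary artery for good (infarct) or left it untied (sham). RNA from the hearts of 3 mice was pooled per group, and each pool was hybridised to 1 GeneChip Mouse Genome 430 2.0 array. With 2 arrays in all and no replicates, the conditions could not be tested against each other, and every difference compares a single infarct pool with a single sham pool. The tissue was not divided into infarcted and surviving muscle, so a smaller share of muscle cells and less RNA per muscle cell cannot be told apart.

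The respiratory chain sits in the inner mitochondrial membrane. Complex III passes electrons from ubiquinol to cytochrome c, complex IV (cytochrome c oxidase) passes them on to oxygen, both help to build a proton gradient, and complex V (ATP synthase) uses that gradient to make ATP. Heart muscle, which beats without rest, is among the tissues richest in these complexes. Complex IV differs from the others in having subunits with a separate isoform for heart and skeletal muscle, next to a ubiquitous form that is often called the liver isoform.

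Values are RMA values, in which the probes of a probe set are summarised to 1 number on the log2 scale. Differences are infarct minus sham, so that a value of -1 is a 2-fold lower signal in the infarct pool. A gene was represented by its brightest probe set, and counted as tested where that probe set reached the array median (6.36 for sham, 6.35 for infarct) on at least 1 array. This left 42 of the 44 members, among 11961 genes in all. The members not tested were dim in both pools: Cox4i2, the restricted form of subunit 4, read 6.25 (sham) and 6.16 (infarct), and Cox7b2, a restricted form of subunit 7b, read 3.84 and 3.74. With no spread between samples, the yardstick for error is the disagreement between probe sets of the same gene. Only probe sets that reached the array median on at least 1 array (passing probe sets) were used for it. The SD of the log2 difference was 0.11 over the 24 members with at least 2 passing probe sets, and 0.23 over 5190 genes. This SD covers the probes only, not the mice.

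On the deposited scale most members were lower in the infarct pool by a small amount, with an SD of 0.20 between the members. Of the 42 tested, 40 had a negative difference, against 49.8% of all genes tested (after both arrays were centred on the hybridisation controls, 12 of the 42 were negative, against 18.1% of all genes). The median difference of the members was -0.26, a 1.20-fold lower signal (a change of -16.5%), whereas the median of all genes tested was 0. The differences of 33 members lay between -0.1 and -0.5. At a difference of -0.5 or lower (1.41-fold), 5 members were called, against a background of 8.72% of all genes, and these were Cox6b2, Cox8b, Cox7a1, Uqcrq and Uqcr11. No member was higher by 0.5 or more (background 12.7%), and none was 2-fold lower (background 1.26%). On the deposited scale nearly all members were thus lower by a little, and no member by much.

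**Figure D1:**
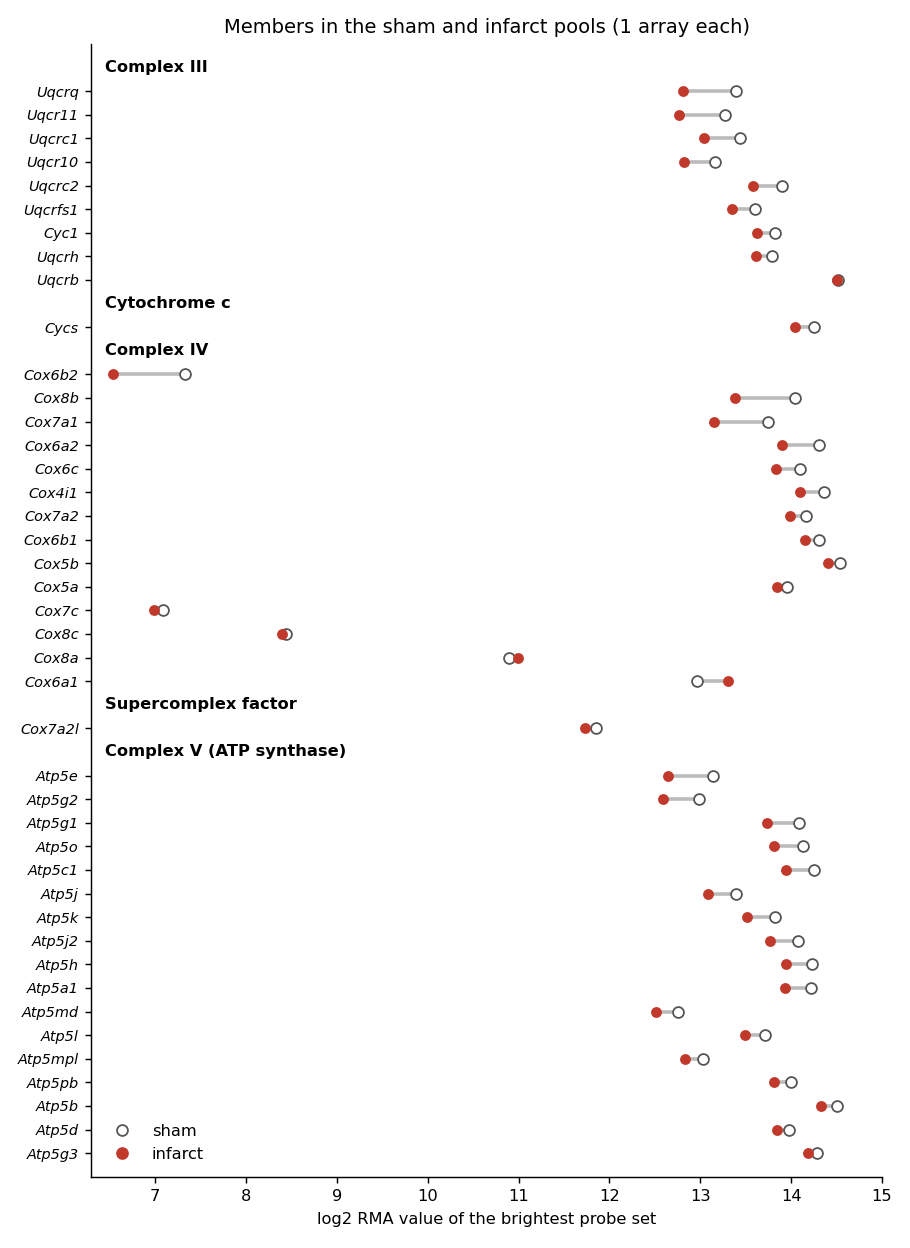
Log2 RMA value (x axis) of the brightest probe set of each of the 42 members tested (rows, by complex) for sham (open circles) and infarct (filled circles), 1 array each. In 40 rows the filled circle lies left of the open one, while Cox6a1 and Cox8a run the other way. Centring on the hybridisation controls moves every filled circle right by 0.32, which leaves 12 on the left, and centring on housekeeping genes moves it left by 0.48, which leaves none on the right.

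Most members gave bright signals. Of the tested members, 37 were at 12 or above in both pools, and 17 were at 14 or above in the sham pool, on arrays whose highest value was 14.9. On the deposited scale, bright genes in general tended to be lower in the infarct pool: of 189 genes with a mean of at least 13, 65.1% had a negative difference and 8.47% were lower by 0.5 or more. The 32 members in this group account for a part of that. Without them, 92 of the remaining 157 bright genes (58.6%) had a negative difference, with a median of -0.091, and 12 were lower by 0.5 or more. In 15 of the 22 members with several passing probe sets and a negative main value, the dimmer probe sets gave the lower difference. The median gap over the 22 was -0.062. Of 59 other genes with a mean of at least 13, several passing probe sets and a negative main value, 42 showed the same. The 22 members were not held to that mean, so the sets are not alike in brightness. Probe sets of high brightness can be compressed, and whether this played a part here was not tested.

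**Figure D2:**
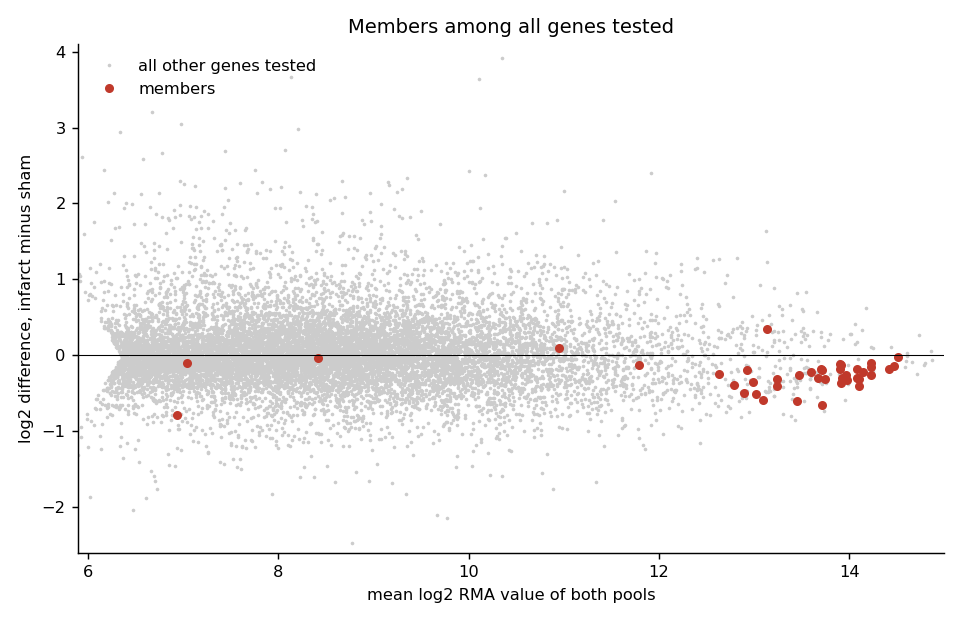
Log2 difference, infarct minus sham (y axis), against the mean log2 RMA value of both pools (x axis) for all genes tested, with the members in large points. The members gather at the bright end just below 0, with a median of -0.26, and Cox6a1 lies above 0 at 0.34. Under hybridisation control centring all points move up by 0.32, and under housekeeping centring down by 0.48.

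The muscle isoforms of complex IV had lower differences than their ubiquitous partners in each of the 3 pairs. These small nuclear subunits sit around the catalytic core of the enzyme. Cox8b, the muscle form of subunit 8, read 14.04 (sham) and 13.39 (infarct), a difference of -0.66 or 1.58-fold. Its ubiquitous partner Cox8a read 10.90 and 11.00, a difference of 0.10. The difference between the partners was -0.76, meaning that the ratio of the muscle to the ubiquitous form was 1.69-fold lower in the infarct pool.

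Subunit 6a gave a value of the same size. Cox6a2, the muscle form, read 14.31 and 13.90 (-0.41), and a second probe set read 13.41 and 12.77 (-0.64). Cox6a1, the ubiquitous form, read 12.96 and 13.30 (0.34), and its second probe set read 11.16 and 11.50 (0.35). Cox6a1 was the highest member by difference, with 80.0% of all genes tested lying below it, although its value turned to -0.14 under housekeeping centring, as that of Cox8a did to -0.38. The difference between the partners was -0.75 (1.68-fold), and it was -0.99 to -0.75 over the 4 combinations of their probe sets.

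In subunit 7a both partners were lower in the infarct pool, although the ubiquitous form turned positive under hybridisation control centring, 1 of the 13 settings. Cox7a1, the muscle form, read 13.74 and 13.15, a difference of -0.60. Cox7a2, the ubiquitous form, read 14.17 and 13.99 (-0.18), or 13.74 and 13.48 with its second probe set (-0.27). The partners differed by -0.42 (1.33-fold), or by -0.33 with the second probe set. A difference of differences does not move when an array is shifted as a whole, so these values do not rest on where the zero of the scale lies. Under hybridisation control centring the muscle forms were still negative, at -0.34 for Cox8b, -0.28 for Cox7a1 and -0.088 for Cox6a2, while their partners were positive. Whole-array centring cannot move these gaps, and the filters kept the same probe sets. Only quantile normalization, the loess trend and the choice of probe sets could change them. Over all 13 processing settings the gap was -0.76 to -0.68 for subunit 8 and -0.99 to -0.74 for subunit 6a. For subunit 7a it was -0.42 to -0.33. The median over the 3 pairs was -0.75. Each partner gap is larger than the SD between probe sets of a single gene, 0.11 over the members and 0.23 over all genes. A gap carries the probe error of both partners, so the SD of a single gene understates its error. By the SD over all genes, the subunit 7a gap, at -0.42 to -0.33, is therefore not clearly resolved. No spread between hearts is known, and Cox7a1 and Cox8b had 1 probe set each.

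**Figure D3:**
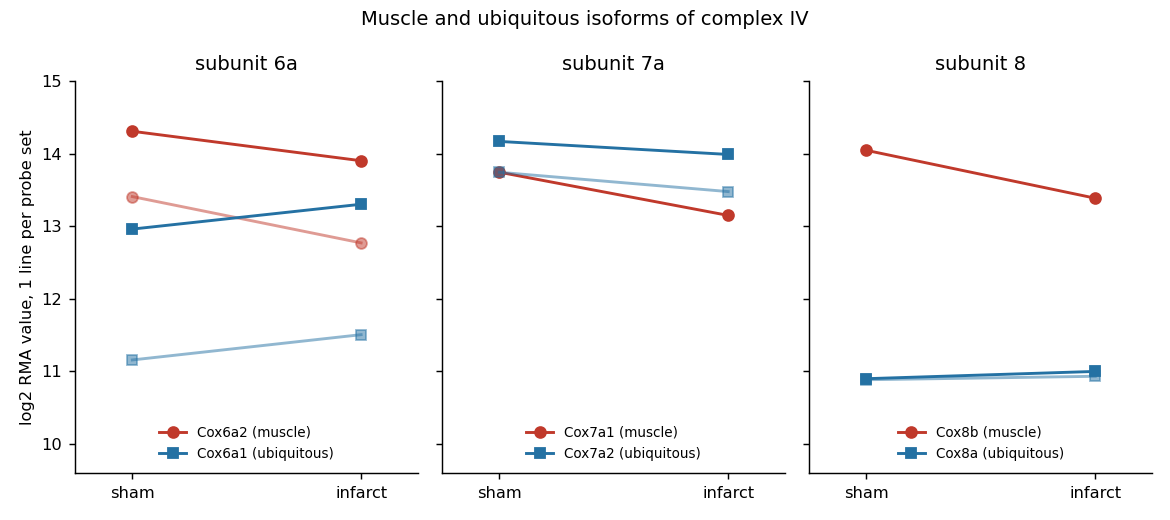
Log2 RMA value (y axis) in the sham and infarct pools for the muscle isoforms (circles) and ubiquitous isoforms (squares) of subunits 6a, 7a and 8 of complex IV, with 1 line per probe set and the brightest drawn darkest. The lines of the muscle forms are steeper downwards than those of their partners in all 3 panels, and the 2 lines of Cox6a1 rise by 0.34 and 0.35. Levels of different probe sets cannot be compared, and a rise becomes a decline under housekeeping centring, while the gap in slope between partners does not depend on the zero.

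The start regions of these genes differ in sequence. RefSeq windows of 300 bases (assembly GRCm38.p6, 250 before and 50 after the start of a transcript) were found for 33 of the 44 members, Cox6a2 not among them. The 120 bases upstream of the start are shown for the other isoforms of the pairs, because the muscle and ubiquitous forms had the members' clearest contrast. They lie at chr7:30184051-30184170 (plus strand) for Cox7a1, chr7:140900447-140900566 (minus) for Cox8b, chr5:115348959-115349078 (minus) for Cox6a1, chr9:79759854-79759973 (minus) for Cox7a2 and chr19:7217617-7217736 (minus) for Cox8a. Each is written 5′ to 3′ on the strand of the gene, with every CpG dinucleotide in capitals.
Cox7a1: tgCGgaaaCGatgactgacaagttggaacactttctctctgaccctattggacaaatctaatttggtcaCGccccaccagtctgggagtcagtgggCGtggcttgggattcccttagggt
Cox8b: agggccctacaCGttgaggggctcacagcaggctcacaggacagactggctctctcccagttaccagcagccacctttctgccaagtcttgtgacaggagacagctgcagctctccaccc
Cox6a1: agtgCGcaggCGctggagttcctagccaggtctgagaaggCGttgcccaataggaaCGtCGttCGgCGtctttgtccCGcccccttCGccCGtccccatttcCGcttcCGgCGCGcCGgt
Cox7a2: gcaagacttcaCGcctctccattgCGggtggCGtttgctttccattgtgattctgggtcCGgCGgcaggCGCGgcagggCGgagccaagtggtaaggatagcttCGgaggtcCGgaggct
Cox8a: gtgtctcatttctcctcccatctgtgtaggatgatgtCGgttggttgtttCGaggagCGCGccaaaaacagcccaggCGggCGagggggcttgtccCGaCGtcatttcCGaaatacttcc
The stretches of the muscle genes hold few CpG dinucleotides, 4 in Cox7a1 and 1 in Cox8b, and those of the ubiquitous genes hold 15 (Cox6a1), 10 (Cox7a2) and 9 (Cox8a). Over the whole window, Cox8b had 2 and Cox7a1 had 7, the lowest counts of the 33 members with a window. Cox6b2 and Cox7b2, which are also forms of restricted expression, had 10 each, and the other members had 12 to 43. The median was 19 for the members and 7 for 27025 genes with a window. CpG-poor start regions are common among genes of restricted expression, and CpG-rich ones among genes used in every tissue. The counts describe the sequence only, and their part in the differences was not tested.

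Motifs of factors known to act on respiratory genes were also looked up in these windows, on both strands. The NRF1 motif (GCGCANGCG) was found in 11 of the 36 windows of members (30.6%), compared with 6.25% of 32851 windows of all genes. The genes were Cycs, Uqcr11, Uqcrc1, Cox6a1, Atp5c1, Atp5g2, Atp5g3, Atp5h, Atp5k, Atp5l and Atp5o. In the Cox6a1 sequence above it begins at the fourth base. The GABP motif (CCGGAAGT) was found in 4 windows (11.1%, against 3.89% of all), those of Cox8a, Uqcr11, Uqcrh and Atp5h. The ERR motif (TNAAGGTCA) was found in 1, that of Atp5g3 (2.78%, against 1.28%), and the MEF2 motif in 0 (against 0.557%). The NRF1 and GABP motifs contain CpG, and windows of members hold more CpG than those of all genes (median 19 against 7). All genes are thus not a background of like sequence, and the shares were not tested against such a background. No match of one motif overlapped a match of another in these windows, and an NRF1 match that reads the same on both strands was counted once per window.

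The other subunits of complex IV, which have no muscle form, had small differences. Cox4i1, the main form of subunit 4, read 14.36 in sham and 14.10 in infarct (-0.26), and Cox6c read 14.10 and 13.83 (-0.26). Cox6b1, a subunit facing the intermembrane space, read 14.30 and 14.15 (-0.15). Cox5a and Cox5b, which face the matrix, read 13.96 and 13.84 (-0.12) and 14.54 and 14.41 (-0.13). Cox7c was measured poorly, since its brightest probe set read only 7.09 and 6.99 (-0.10). The median of these 6 subunits was -0.14, close to the SD between probe sets, and all 6 were negative on the deposited scale and none after hybridisation control centring. For complex IV as a whole, 12 of 14 were negative (4 after that centring), 3 were lower by 0.5 or more, the median was -0.17 and the SD between genes was 0.30. The shares of all genes were 49.8% negative (18.1% after that centring) and 8.72% lower by 0.5 or more. Without the less specific probe sets (IDs ending in _x_at or _s_at), the median was -0.26.

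Forms of complex IV subunits known from testis were also on the array. Cox6b2 had the lowest difference of all members, at -0.79, but its signal was dim, 7.33 in sham and 6.54 in infarct, and it had 1 probe set. It ranked 339 from the lowest among 11961 genes, followed among the members by Cox8b (574), Cox7a1 (721), Uqcrq (760) and Uqcr11 (1016). Its ubiquitous partner Cox6b1 differed by -0.15, a gap of -0.64. Cox8c read 8.44 and 8.40 (-0.040). Its second probe set gave 0.35, but it reached the array median in the infarct pool only, so the filter set its sign. No direction can be given for Cox8c.

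In complex III all 9 subunits had a negative difference (4 of 9 after hybridisation control centring), with a median of -0.32. Of all genes tested, 49.8% were negative (18.1% after that centring) and 8.72% were lower by 0.5 or more. Uqcrq, a small subunit, read 13.39 in sham and 12.81 in infarct (-0.58). Its main probe set is of a less specific kind (ID ending in _s_at). A second, dim probe set gave -0.31, but it reached the array median in sham only, so the filter set its sign. Uqcr11, the smallest subunit, read 13.27 and 12.76 (-0.51), just inside the threshold of 0.5.

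The core proteins of complex III carry no redox group. Uqcrc1 read 13.44 and 13.04 (-0.40), and Uqcrc2 read 13.90 and 13.58 (-0.32). Uqcr10, a small subunit, read 13.16 and 12.82 (-0.34), with dimmer probe sets down to -0.65. The catalytic subunits carry the redox groups. Uqcrfs1, the Rieske iron-sulfur protein, read 13.60 and 13.34 (-0.26), and Cyc1, which is cytochrome c1, read 13.82 and 13.62 (-0.20). The hinge protein Uqcrh, which helps cytochrome c to dock, read 13.79 and 13.61 (-0.18). Uqcrb, which helps to bind ubiquinone, read 14.52 and 14.50 (-0.018), although its second probe set gave -0.19. Cytochrome c itself (Cycs) read 14.26 and 14.04 (-0.22), with probe sets from -0.60 to -0.12. The probe set at -0.60 reached the array median in sham only, so the filter set its sign. Cox7a2l, which joins complexes III and IV into supercomplexes, read 11.85 and 11.73 (-0.12).

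Complex V was the most even of the 3. All 17 genes had a negative difference (4 of 17 after hybridisation control centring), none reached -0.5, and the median was -0.30. Among all genes, 49.8% were negative (18.1% after that centring) and 8.72% reached -0.5. The SD between the 17 genes, 0.099, was no larger than the SD between probe sets of a gene, 0.11, so that the order of its subunits is not resolved. In the catalytic head, Atp5b, the beta subunit that holds the catalytic sites, read 14.50 and 14.33 (-0.18), and Atp5a1, the alpha subunit, read 14.22 and 13.93 (-0.29). In the central stalk, Atp5c1 (gamma) differed by -0.31 and Atp5d (delta) by -0.13, or -0.31 with its second probe set. Atp5e, the epsilon subunit, read 13.14 and 12.64, and its difference of -0.50 fell just short of the threshold.

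The membrane rotor is built of c subunits that come from 3 genes with different import sequences and the same mature protein. Atp5g1 read 14.09 and 13.73 (-0.36), Atp5g2 read 12.99 and 12.59 (-0.40), and Atp5g3 read 14.28 and 14.18 (-0.10). Atp5g3 had the difference nearest to 0 in complex V. The peripheral stalk, which holds the head still, had Atp5o (OSCP) at -0.32, or -0.57 with a second probe set, Atp5j (F6) at -0.31, Atp5h (d) at -0.30 and Atp5pb (b) at -0.18. The small membrane subunits, which support the dimer of the enzyme, were at -0.30 for Atp5k and Atp5j2, at -0.25 for Atp5md, at -0.22 for Atp5l and at -0.20 for Atp5mpl. Medians of these subgroups ran from -0.36 for the c genes to -0.25 for the membrane subunits, with -0.29 for the head and central stalk and -0.30 for the peripheral stalk.

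Among members with 2 or more passing probe sets, the probe sets of a gene mostly shared their direction. The matching share over all genes was not counted, so this agreement is not shown to be a trait of the members. In 21 of 24 members all such probe sets were negative, in Cox6a1 and Cox8a all were positive, and Cox8c had both signs. Of the 77 passing probe sets of the members, some of them little above the array median, 72 were negative. These signs are those of the deposited scale and are open to its zero, as above.

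The other respiratory complexes were counted in the same way, against 49.8% of all genes below 0 (18.1% after hybridisation control centring) and 8.72% lower by 0.5 or more. The genes of complex I, which takes electrons from NADH, were taken by symbol. Of 34 tested, 33 were below 0 (25 after hybridisation control centring) and 6 were lower by 0.5 or more. Their median was -0.42, which is -0.16 relative to the members. The lowest were Ndufs1 (-0.63) and Ndufs8 (-0.60), and the highest were Ndufb6 (-0.16) and Ndufa4l2 (0.34). Ndufa4l2, the only gene of the list above 0, is named as a relative of Ndufa4 and was counted by its symbol only. Ndufa4, now counted with complex IV, read 13.42 and 13.01 (-0.41). Complex II, which takes electrons from succinate, had all 4 genes below 0 (3 after that centring), with Sdha at -0.44, Sdhc at -0.44, Sdhb at -0.36 and Sdhd at -0.18. Of the subunits made inside mitochondria, ND5 of complex I was on the array, at 14.64 and 14.56 (-0.079).

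**Figure D4:**
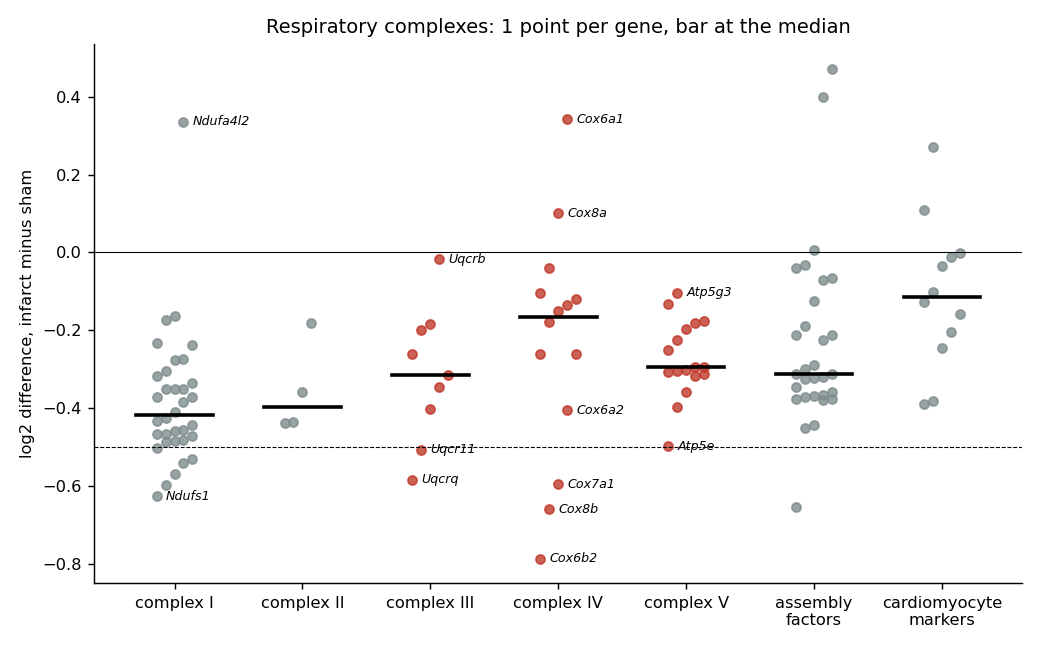
Log2 difference, infarct minus sham (y axis), of each gene tested in complexes I to V, the assembly factors and the cardiomyocyte markers. Bars mark medians, the dashed line lies at -0.5, and complex I includes Ndufa4l2, taken by its symbol only. Medians are -0.42, -0.40, -0.32, -0.17 and -0.30 for complexes I to V, -0.31 for the assembly factors and -0.11 for the cardiomyocyte markers. Under hybridisation control centring all points move up by 0.32, which puts the medians of complexes III, IV and V above 0.

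Genes that build, feed or control the complexes were counted in the same way, against the same background of 49.8% of all genes below 0 (18.1% after hybridisation control centring) and 8.72% lower by 0.5 or more. Of 30 tested assembly factors of complexes III to V, 27 were below 0 (14 after hybridisation control centring) and 1 by 0.5 or more, with a median of -0.31. Their lowest were Lrpprc (-0.66), which stabilises mitochondrial mRNA, and Atpaf1 (-0.45), which helps to assemble ATP synthase, and their highest were Cox18 (0.40) and Cox19 (0.47). Of 9 carriers and kinases that move ATP and phosphate on, 7 were below 0 (2 after that centring) and 1 by 0.5 or more (median -0.22). Ckm, the muscle creatine kinase, was lowest (-0.77), followed by Ckmt1 (-0.47), which was dim at 6.49 in sham and 6.02 in infarct. Ckmt1 reached the array median in sham only, so the filter set its sign. Vdac2 (0.13) and Slc25a5 (0.23) were highest. Of 76 mitochondrial ribosomal proteins, 66 were below 0 (24 after that centring) and 5 by 0.5 or more (median -0.23), from Mrpl55 (-0.59) and Mrpl14 (-0.57) to Mrpl52 (0.20) and Mrps18b (0.34).

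Of 19 regulators of respiratory genes, 16 were below 0 (12 after hybridisation control centring), 6 by 0.5 or more, and 1 was higher by 0.5 or more, with a median of -0.39. The lowest were the nuclear receptors Ppara (9.38 and 8.62, -0.75) and Esrrg (9.16 and 8.48, -0.68). The highest were Gabpb1 (0.36), a subunit of the factor that binds the GABP motif, and the coactivator Pprc1 (8.16 and 8.92, 0.76). Ppargc1a, the coactivator PGC-1 alpha, read 10.41 and 9.74 (-0.67) and was picked out after its value was seen.

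Cell type markers were counted in the same way, against 49.8% of all genes below 0 and 8.72% lower by 0.5 or more. After hybridisation control centring, 18.1% of all genes were below 0. Of 12 cardiomyocyte markers, 10 were below 0 (2 after hybridisation control centring) and none by 0.5 or more, from Ryr2 (-0.39) to Nppa (0.27), with sham values from 13 to 14.9. Their median was -0.11, and -0.25 with probe sets averaged per gene. With the dimmest passing probe set of each gene it was -0.31, lower than that of the members at -0.27. The gap to the members thus depends on the probe sets chosen, and its order turns. Macrophage markers were higher in the infarct pool in 6 of 6 genes (median 0.55), neutrophil markers in 4 of 4 (median 1.33) and markers of dividing cells in 3 of 3 (median 2.14). After housekeeping centring these counts were 4, 3 and 3, and 86.6% of all genes were below 0. The neutrophil marker Cxcr2 (5.91 in sham, 6.36 in infarct) reached the array median in the infarct pool only, so the filter set its sign on the deposited scale. Medians were 0.061 for 5 fibroblast markers (3 above 0), 0.16 for 4 endothelial markers (3 above 0) and -0.13 for 4 smooth muscle and pericyte markers (2 above 0). Skeletal muscle shares the muscle isoforms of complex IV, and of its 4 markers Myh1, Myh4 and Actn3 were too dim to be tested while Myh2 read 6.82 and 6.44. Brown fat also uses them, and its marker Ucp1 was too dim to be tested while Cidea read 10.05 and 10.07. The part of the cell mixture in the differences of the members was not tested.

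**Figure D5:**
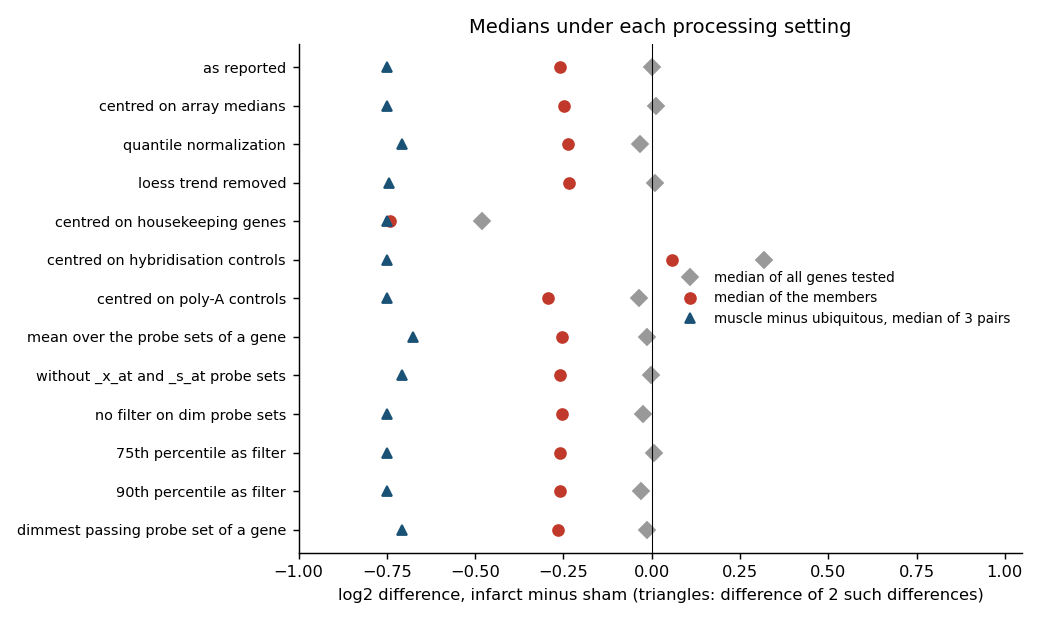
Medians of the log2 difference, infarct minus sham (x axis), under each of 13 processing settings (rows) for all genes tested (diamonds), the members (circles) and the 3 muscle minus ubiquitous pairs (triangles). The members stay left of all genes by 0.21 to 0.27 in each row, although their own median moves to -0.74 under housekeeping centring and to 0.058 under hybridisation control centring. Whole-array centring cannot change this distance to all genes. The triangles stay between -0.75 and -0.68, but whole-array centring cannot move them, and the filters kept the same probe sets.

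The zero of the scale decides how the counts above read, and the relation to other genes does not move with it. Housekeeping genes (8 tested, mean 0.48 higher in the infarct pool) and hybridisation controls (18 probe sets, mean -0.32) pulled it to opposite sides. The 8 housekeeping differences ran from 0.0099 (Tbp) to 1.12 (Gusb), with an SD of 0.36. Centring on the housekeeping genes and on the hybridisation controls shifted the median of all genes to -0.48 and 0.32. Relative to that median the members stood at -0.26 in both cases, which a shift of a whole array cannot change. Over all 13 settings they stood at -0.27 to -0.21. Only quantile normalization, the loess trend, the choice of probe sets and the filter could move that value. The poly-A controls, 27 probe sets of transcripts added to the RNA, differed by a mean of 0.035. Which zero is right was not tested.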

How the data were processed

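The authors extracted total RNA from frozen hearts, pooled it per group and hybridised biotinylated cRNA. The authors deposited 1 log2 value per probe set, which the labels call RMA. Which RMA software and version made them is not given in the sources used here. RMA gives both arrays nearly the same distribution, so a change in total mRNA cannot be seen. Depth does not apply to arrays, and precision is limited by having 2 of them.

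By the platform annotation, 34945 probe sets carried 1 gene symbol and 932 several. Only the former were used. All 44 members matched RefSeq by Entrez identifier. Of the members, 8 have pseudogenes named after them (15 in all), and 12 of those tested were read by less specific probe sets (IDs ending in _x_at or _s_at). A call was a log2 difference of 0.5 or 1, and no p-value was computed. All members are named. The rule for other lists was their 2 lowest and 2 highest genes, and all genes of complex II and the mitochondrially encoded ones. The marker and housekeeping lists are given mainly as counts and medians. The members, lists, thresholds and alternatives were chosen with earlier results of these data known. Alternatives covered the centring, the normalization, a loess trend (span 0.4), the probe set that stands for a gene, the filter (75th or 90th percentile) and the threshold. The scripts were tested on simulated data, which gives no error rate for calls on 2 arrays. The array values go with no genome build, and coordinates belong to the RefSeq windows alone. A planned comparison of protein sequences was not run. Scripts ran in Python (version 3.11.15) using statsmodels 0.14.6, scipy 1.17.1, pandas 2.3.3, numpy 2.4.6 and matplotlib 3.10.9.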

Additional observations from a re-analysis of the deposited data

How the results depend on the processing

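Values with no test were taken as moved when they changed by more than the SD between probe sets of a gene among the members (0.11), and counts when they changed by more than 1.5 times. The median of the members was -0.29 to -0.23 in 11 of 13 settings, became -0.74 when centred on housekeeping genes and turned to 0.058 when centred on hybridisation controls. The number of members below 0 was 37 to 42 in those 11 settings, which tested 39 to 44 members, against 48.7% to 54.0% of all genes. It was 12 of 42 under hybridisation control centring, where 18.1% of all genes were below 0. The number lower by 0.5 or more was 4 to 6 in 10 settings, against 6.47% to 13.4% of all genes. It was 39 under housekeeping centring (48.0% of all genes), 0 under hybridisation control centring (2.48%), and 0 at a threshold of 1 (1.26%). With the dimmest passing probe set of each gene, a setting chosen after seeing the data, it was 8 (9.37% of all genes). Under that setting Uqcrq is lost and Uqcr10, Cox6a2, Atp5o and Cycs are added. The probe sets of Uqcrq and Cycs in it reached the array median in sham only, so the filter set their sign. Over all genes, 1043 were lower by 0.5 or more, against 5738 under housekeeping centring, 297 under hybridisation control centring, 430 with the 90th percentile as filter, where 3216 genes were tested, and 151 at a threshold of 1. Averaging probe sets moved 7 members, and dropping the less specific probe sets (IDs ending in _x_at or _s_at) moved Uqcrq (-0.31) and Cox5b (-0.26). The median over the isoform pairs moved in none of the 13 settings, but whole-array centring cannot move it, and the filters kept the same probe sets. No paired analysis was possible because each group has 1 array, and for the same reason no sample could be left out. The cause of these changes was not tested.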
